A study of Rattus norvegicus with 18 samples.

Results

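Cultured rings of rat aorta that had received vascular endothelial growth factor (VEGF) were compared directly with rings that had received angiopoietin-1 (Ang1). The samples were chosen by their titles: every array of a VEGF or Ang1 RNA was taken and every array of an untreated RNA was set aside, which gave 12 of the 18 samples and 6 of the 9 RNAs. The question the comparison addresses is which genes separate rings under one angiogenic factor from rings under the other.

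Thoracic aortas of male Fisher 344 rats aged 5 weeks were cut into rings of 2 mm and kept for 13 days in serum-free medium. The VEGF rings then received recombinant human VEGF at 10 ng/ml. The Ang1 rings received recombinant human Ang1 at 100 ng/ml together with a poly-His antibody at 5 µg/ml, so Ang1 was never given without that antibody and VEGF never with it. RNA was taken after 20 h per the sample labels (18 h per the design text), each RNA from 4 to 6 pooled rings, with 3 RNAs per group. Each RNA was read on 2 Affymetrix rat array types, RAE230A (called array A) and RAE230B (called array B), which carry different probe sets and were analysed separately. The doses and the antibody differ between the arms, so a difference between them belongs to the whole treatment and not to equal amounts of both factors.

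VEGF acts on endothelial cells through the receptor tyrosine kinases Kdr and Flt1 and drives their division, migration and sprouting. Ang1 is the main activating ligand of the receptor Tek (Tie2), which is held to quiet endothelium, tighten its junctions and restrain inflammatory signalling; Angpt2 competes for the same receptor. In the aortic ring model sprouts leave the explant together with smooth muscle cells, fibroblasts and macrophages, so the RNA is a mixture. In such bulk RNA, fewer cells of a type and less RNA per cell cannot be told apart.

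All values below are log2(signal + 16) after the arrays of 1 type had been brought to a common distribution, differences are VEGF minus Ang1 in log2 units ± the standard error (SE) of the fit, and a negative difference means that Ang1 was higher. Fold values are ratios of signal + 16 and not of the signal itself. Ang1 replicate 2 stood apart from the other arrays. Its median correlation with the other 5 was 0.69 on array A and 0.44 on array B, against 0.87 to 0.95 and 0.80 to 0.86 for the other arrays. The lowest of those others was VEGF replicate 3 on both array types (0.87 and 0.80). The deposited signal of the Gapdh 3' control of Ang1 replicate 2 was 446.9 on array A, against 2855 to 3247 on the other 5. Untreated replicate 2, which entered no fit, had a Gapdh 3' signal of 64.4 on array A (2218 and 2964 in the other untreated RNAs) and 309.5 on array B (8016 and 10430), so the untreated values below include 1 RNA that stood apart in the same measure. The 3'/5' ratio of the actin control, a sign of RNA quality, was 8.79 to 12.4 in VEGF and 6.18 to 8.29 in Ang1 on array A, and 5.24 to 11.9 against 1.25 to 7.38 on array B. The part of RNA quality in the results was not tested. Results are therefore given with all 6 arrays and without Ang1 replicate 2. The labelled tissue was checked against smooth muscle and endothelial markers, which were above the filter, with Acta2 at 7.08 to 8.34, Myh11 at 9.68 to 10.64 and Tek at 9.92 to 11.11 over the 6 arrays.

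No probe set separated VEGF from Ang1 after adjustment over all probe sets of its array type (limma, Benjamini-Hochberg): 0 of 9520 passed on array A and 0 of 9166 did so on array B. The smallest adjusted p was 0.977 on array A and 0.662 on the other array type. At an unadjusted p below 0.05, 130 probe sets (1.37%) differed on array A, 63 higher in VEGF (0.662%) and 67 lower (0.704%). On array B 514 (5.61%) did, 244 higher (2.66%) and 270 lower (2.95%). The difference was above 0 in 51.6% of all probe sets of array A and in 51.9% of array B. That split depended on the scaling: with the array medians set equal in place of the common distribution it became 82 higher and 40 lower on array A and 388 higher and 238 lower on array B, with a trimmed mean 219 and 493 on array B, and with the values as deposited 826 and 10 there. The median of all probe sets was 0.01 on array A and 0.03 on array B, and moved to 0.14 and 0.18 with equal medians and to 0.34 on array B as deposited, where Ang1 replicate 3 had a trimmed mean of 94.8 against 250 on the other arrays. Leaving out VEGF replicate 1, 2 or 3 gave an array A count of 69, 49 or 192, and leaving out Ang1 replicate 1, 2 or 3 gave 135, 274 or 346. In the same order the array B count was 204, 184 or 513, and 558, 478 or 1012. Adjusted calls appeared when each array was weighted by its residual spread. Then 30 probe sets of array A and 3 of array B passed, with adjusted p-values (limma) of 0.0117 to 0.0466. The weights of Ang1 replicates 1 to 3 were 5.2, 0.115 and 1.18 on array A, so the Ang1 side rested mostly on 1 RNA. Those of the VEGF replicates were 1.31, 3.22 and 0.334. On array B the weights were 2.29, 0.138 and 1 in Ang1 and 2.09, 2.86 and 0.526 in VEGF. Among the named genes described here, those called on array A were Emcn, Mki67, Cxcl10, Mx2, Nos2, Fkbp8, Fam98c, Car8 and Pogz on the VEGF side and Vps33a, U2af2, Btbd10 and Rasgef1b on the Ang1 side. As deposited, 4 passed on array B.

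**Figure D1:**
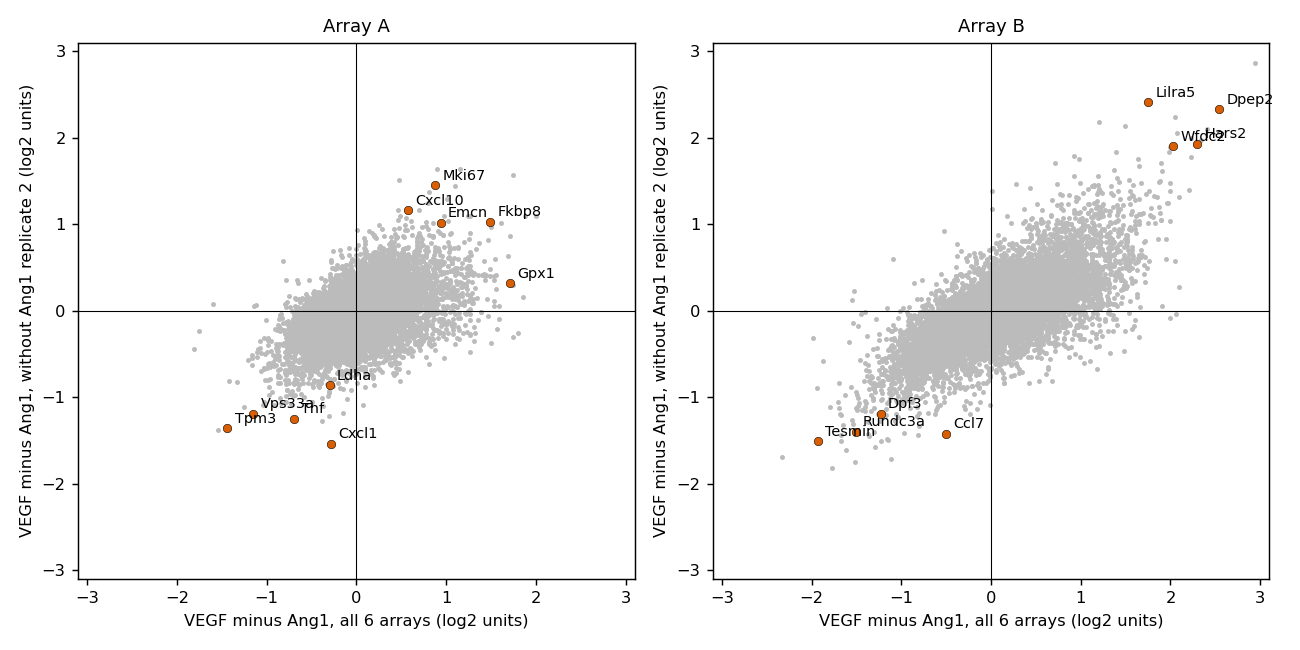
Each point is a probe set, with the VEGF minus Ang1 difference in log2 units from all 6 arrays on the x axis and without Ang1 replicate 2 on the y axis, for array A (left) and array B (right). Orange points are named genes; Dpep2, Wfdc2 and Hars2 keep their place on both axes, whereas Cxcl1 and Ccl7 lie near 0 on the x axis and below -1 on the y axis.

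The largest and most regular differences were on array B, in genes that were lower in Ang1 rings than in VEGF rings. Dpep2, a membrane dipeptidase that processes leukotriene D4, read 8.51, 8.08 and 8.57 in the 3 VEGF RNAs and 5.92, 5.38 and 6.22 in the 3 Ang1 RNAs. Its groups lay more than 1 log2 unit apart, with untreated rings at 7.95, 7.94 and 7.80 on the VEGF side. The difference was 2.54 ± 0.38, a 5.84-fold higher level in VEGF (limma, adjusted p = 0.662), and 2.33 ± 0.32 without Ang1 replicate 2.

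Wfdc2, a secreted protein with whey acidic protein domains, followed the same order, at 8.0, 8.53 and 8.81 in VEGF, 6.83, 6.11 and 6.30 in Ang1 and 8.71, 9.23 and 8.72 in untreated rings. Every VEGF and every untreated value lay above every Ang1 value, and the difference between VEGF and Ang1 was 2.03 ± 0.37, or 4.09-fold. Hars2, the mitochondrial histidyl-tRNA synthetase, read 8.42, 8.86 and 8.46 in VEGF against 6.85, 5.49 and 6.52 in Ang1, a difference of 2.30 ± 0.42. Lilra5, a receptor of myeloid cells, read 8.36, 8.19 and 7.91 in VEGF and 5.75, 7.71 and 5.75 in Ang1. Here Ang1 replicate 2 was the highest of its group, so that the difference of 1.75 ± 0.56 became 2.41 ± 0.32 without it. With array weights Dpep2 and Lilra5 were among the 3 calls of array B, beside a probe set without a gene name that read 8.86, 9.48 and 10.58 in VEGF and 6.81, 6.31 and 6.98 in Ang1.

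Other array B genes that were higher in every VEGF RNA than in every Ang1 RNA were Icmt, which methylates prenylated proteins (2.34 ± 0.57), U2surp, a splicing protein (1.91 ± 0.48), C5h1orf50 (1.89 ± 0.46), Smim1, a red cell membrane protein (1.67 ± 0.38), Mrpl47 of the mitochondrial ribosome (1.65 ± 0.41) and the zinc finger gene Zfp534l2 (1.37 ± 0.35). In the other direction, Rundc3a read 9.57, 9.35 and 9.59 in VEGF and 10.83, 11.46 and 10.75 in Ang1. Untreated rings, at 10.22, 10.52 and 10.34, lay between the groups, and the difference was -1.51 ± 0.33. Dpf3, a subunit of the BAF chromatin remodelling complex, read 6.94, 6.88 and 6.87 in VEGF and 8.24, 8.23 and 7.93 in Ang1, a difference of -1.23 ± 0.30. The remaining array B genes of that direction were Tesmin, named for its expression in testis (-1.93 ± 0.50), Tchp, a ciliary and keratin-binding protein (-1.87 ± 0.51), the transcription factor Zic2 (-1.77 ± 0.49), Tmc4 (-1.51 ± 0.46), B4galnt4, a glycosyltransferase (-1.32 ± 0.38), Ggn, a germ cell protein (-1.19 ± 0.34), and the globin Hbq1 (-1.04 ± 0.30). For each of these 15 genes other than Tchp, which fell below the filter, the direction was the same without Ang1 replicate 2. As they were chosen for groups that do not overlap, leaving out 1 RNA could hardly change it, so this adds no support. Non-overlap alone was common on array B, where 1421 probe sets (15.5%) had VEGF and Ang1 values that did not overlap, 534 higher in VEGF (5.83%) and 887 lower (9.68%).

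**Figure D2:**
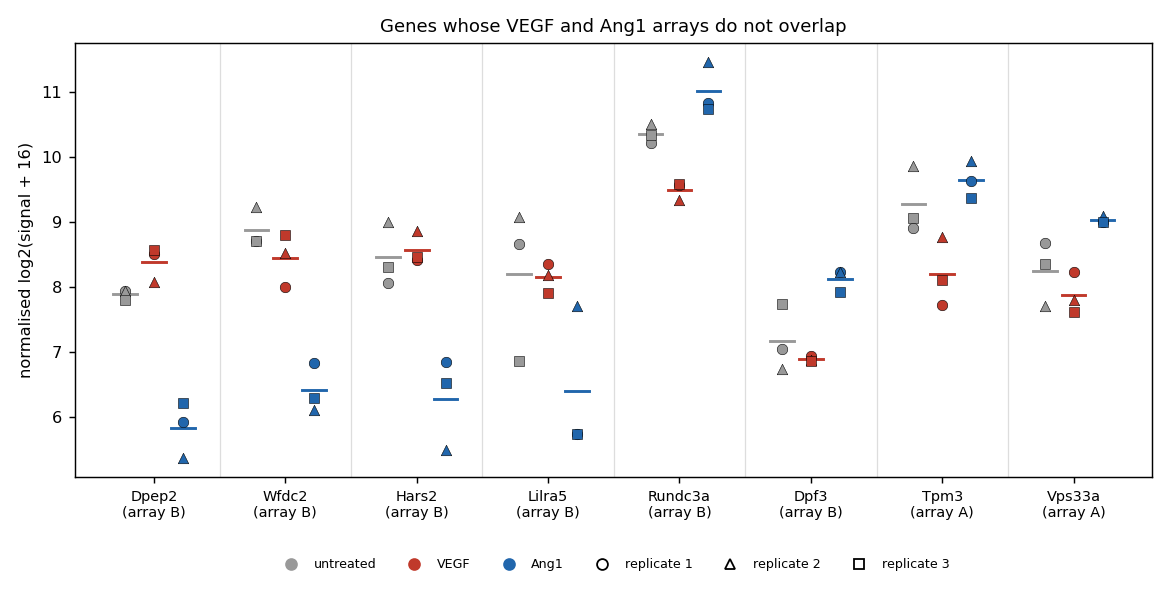
Normalised log2(signal + 16) of 8 genes in each of the 9 RNAs, with the 3 replicates as symbols, the group means as bars, VEGF in red, Ang1 in blue and untreated in grey. In Dpep2, Wfdc2 and Hars2 the Ang1 symbols lie below both other groups, and in Dpf3 the VEGF symbols lie below all Ang1 symbols.

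On array A the gene of smallest p among the probe sets with a single gene name was the ribosomal protein Rpsa, at 11.62, 11.29 and 11.35 in VEGF and 10.60, 10.36 and 10.40 in Ang1, a difference of 0.97 ± 0.23 (limma, adjusted p = 0.977). Its probe set is of the kind that can bind near-identical copies, so which copy was read is uncertain. Tpm3, a tropomyosin that lines actin filaments, read 7.73, 8.77 and 8.12 in VEGF and 9.64, 9.95 and 9.37 in Ang1, a difference of -1.44 ± 0.34, or -1.36 ± 0.36 without Ang1 replicate 2. Vps33a, which serves fusion of endosomes with lysosomes, read 8.24, 7.80 and 7.62 in VEGF and 9.00, 9.10 and 9.00 in Ang1, a difference of -1.15 ± 0.27. In both genes the groups did not overlap; on array A this held for 755 probe sets (7.93%), 346 higher in VEGF (3.63%) and 409 lower (4.30%).

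Further array A genes with every VEGF value above every Ang1 value were Fkbp8, a mitochondrial chaperone (1.49 ± 0.47), Nubpl, an assembly factor of respiratory complex I (1.25 ± 0.42), the circadian gene Per1 (1.24 ± 0.41), the translation factor subunit Eif2s3 (1.03 ± 0.36), Rbbp6, a ubiquitin ligase (1.02 ± 0.32), Elovl1, a fatty acid elongase (0.98 ± 0.32), Marf1 (0.93 ± 0.28), the microtubule-binding proteins Ckap5 (0.85 ± 0.30) and Clasp2 (0.81 ± 0.26), and Jmjd1c (0.83 ± 0.27). Those with every Ang1 value above every VEGF value were the small GTPases Rab14 (-1.54 ± 0.50), Rab11b (-0.97 ± 0.29) and Rhog (-0.69 ± 0.23), the sperm enzyme Gapdhs (-1.04 ± 0.31), the splicing factor U2af2 (-1.02 ± 0.33), the coat protein Copg1 (-0.88 ± 0.25), Pomgnt2, which glycosylates dystroglycan (-0.85 ± 0.26), the thyroid hormone receptor Thra (-0.80 ± 0.27), the vesicle chaperone Dnajc5 (-0.80 ± 0.26) and Btbd10 (-0.78 ± 0.25). Not one of them passed the adjusted threshold with all 6 arrays. Without Ang1 replicate 2 these 20 genes kept their direction, except Gapdhs, which fell below the filter and has no value there. That was nearly set by the choice of genes whose groups do not overlap, so it adds no support. Nubpl fell to 0.83 and Eif2s3 to 0.68 without Ang1 replicate 2.

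Many of these genes have a second probe set, and most of the second readings were smaller. Of the 40 genes chosen on arrays A and B by the smallest p with all 6 arrays, 15 had another probe set above the filter. With all 6 arrays every other probe set had the same sign in 7 of them, and at least 1 had the opposite sign in 8. Only U2af2 had another at an unadjusted p below 0.05 (-1.13 ± 0.44 on array B, or -0.90 without Ang1 replicate 2). The 4 other probe sets of Tpm3 ranged from -0.55 to 0.45. That of Vps33a on array B read 1.04 ± 0.73, and the others of Copg1 and Thra read 0.70 ± 0.50 and 0.74 ± 0.63. Without Ang1 replicate 2 these 3 read 0.11, 0.07 and -0.07. The signs also depended on that RNA in Rpsa, whose others went from 1.14 and 0.61 to -0.22 and 0.08. In Eif2s3 the others went from 0.13 and 0.36 to -0.15 and -0.18. For Icmt and U2surp the array A probe sets read 0.05 ± 0.25 and -0.06 ± 0.37. Dpep2, Wfdc2, Hars2, Lilra5, Dpf3 and Emcn each rested on a single probe set above the filter.

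Endothelial markers were the cell type list with the most members at an unadjusted p below 0.05. Emcn, an endothelial sialomucin, read 7.63, 7.54 and 7.64 in VEGF and 6.40, 6.74 and 6.85 in Ang1. Untreated rings read 6.52, 6.75 and 6.86, so the Ang1 and untreated values overlapped while the VEGF values lay above both. The difference was 0.94 ± 0.27, or 1.92-fold, and 1.02 ± 0.25 without Ang1 replicate 2 (limma, adjusted p = 0.977 and 1), and Emcn was called with array weights (1.08). Of the 18 endothelial markers kept on array A, 13 were higher in VEGF and 5 lower, with a median of 0.24 against 0.01 for all probe sets. Besides Emcn, unadjusted p-values below 0.05 were found for Procr, the endothelial protein C receptor (0.82 ± 0.35), and Eng, a TGF-beta co-receptor (1.61 ± 0.68), against 0.662% of all probe sets in that direction. On array A this balance turned without Ang1 replicate 2, where 7 of 17 were higher and 10 lower and the median was -0.10. Emcn alone kept an unadjusted p below 0.05 there, where 1.43% of all probe sets were higher. Procr was 0.58 and Eng 1.01 in that fit. On array B all 7 markers kept were higher in VEGF (median 0.71). Without Ang1 replicate 2, 4 of them were higher and 3 lower (median 0.12). The summed signal of the array A list was 4646 to 6038 in VEGF and 3082 to 5982 in Ang1, with the lowest sum in Ang1 replicate 2. No list member above the filter was at 0 on any array.

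Among the ligands and receptors of both factors, no member reached an unadjusted p below 0.05 with all 6 arrays. Angpt2, the competing Tek ligand that marks sprouting endothelium, read 9.94, 9.75 and 9.98 in VEGF, 9.03, 9.73 and 9.50 in Ang1 and 9.62, 9.75 and 9.51 in untreated rings. Its VEGF and Ang1 values did not overlap, with Ang1 replicate 2 just below the lowest VEGF value, and the difference was 0.47 ± 0.27, or 0.65 ± 0.27 without Ang1 replicate 2 (limma, adjusted p = 0.977 and 1). Tie1, the partner receptor of Tek, read 8.55, 8.24 and 8.11 in VEGF and 8.60, 8.54 and 9.15 in Ang1, a difference of -0.47 ± 0.29, or -0.61 ± 0.30 without Ang1 replicate 2. Tek itself (array B) read 10.97, 10.67 and 11.11 in VEGF and 10.88, 9.92 and 11 in Ang1, a difference of 0.31 ± 0.37 that was -0.03 ± 0.27 without Ang1 replicate 2. The VEGF receptor Kdr read 9.11, 8.74 and 8.79 in VEGF and 8.46, 7.33 and 9.06 in Ang1 on array A. Its difference of 0.60 ± 0.44 was 0.13 ± 0.31 without Ang1 replicate 2, and its array B probe set differed by 0.06 ± 0.50. The other VEGF ligands and receptors kept on array A were Pgf (1.43 ± 0.84, or 0.40 ± 0.43 without Ang1 replicate 2), Vegfc (0.42 ± 0.36), Nrp1 (0.33 ± 0.62), Vegfb (0.03 ± 0.33), Vegfd (-0.32 ± 0.32), Flt1 (-0.41 ± 0.38) and Vegfa (-0.43 ± 0.30). Leaving out Ang1 replicate 2, Vegfc was 0.09, Nrp1 -0.28, Vegfb -0.13 and Vegfa -0.27, while Flt1 and Vegfd fell below the filter, so the differences of Vegfc, Nrp1, Vegfb and Vegfa shrank or turned. Pgf also had a second probe set of opposite sign (-0.22 ± 0.37). A second probe set of Nrp1 read 0.86 ± 0.51 and kept its sign without Ang1 replicate 2 (0.47 ± 0.47). The phosphatase Ptprb, which acts on Tek, differed by 0.55 ± 0.40 and, on the second array type, by 1.08 ± 0.68; leaving out Ang1 replicate 2 gave 0.25 and 0.27. The remaining genes of the Tek list, all adaptors of receptor signalling, lay between -0.33 and 0.14 in the array A fit, and those read on array B between 0.08 and 0.63. Apln, a peptide of sprouting tip cells, read 7.95, 7.80 and 8.25 in VEGF and 6.72, 7.35 and 7.79 in Ang1, a difference of 0.72 ± 0.34, and its second probe set differed by 0.06 ± 0.27.

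Without Ang1 replicate 2, several chemokines and cytokines read higher in both remaining Ang1 RNAs than in every VEGF RNA, none past the adjusted threshold. On array A this held for 6 of 14 chemokines and 4 of 15 cytokines, with 1 of each list higher in VEGF without overlap. Cxcl1, Ccl7, Tnf, Il1a, Sod2 and Tnfaip6 were named for small p and non-overlap in the fit without Ang1 replicate 2. Their differences there therefore add no support. In that fit 274 probe sets of array A (2.88%) and 478 of array B (5.21%) were at an unadjusted p below 0.05, and the groups did not overlap in 1736 (18.2%) and 2051 (22.4%). On array A 815 of these were higher in VEGF (8.56%) and 921 lower (9.67%), and on array B 829 (9.04%) and 1222 (13.3%). The difference was above 0 in 49.7% and 47.6% of all probe sets. Cxcl1, a neutrophil-attracting chemokine, read 8.59, 8.71 and 7.97 in VEGF, 9.56, 6.31 and 10.24 in Ang1 and 6.71, 7.08 and 7.85 in untreated rings. Ang1 replicates 1 and 3 thus lay above every other RNA and Ang1 replicate 2 below every other. The difference was -0.28 ± 0.90 with all 6 arrays and -1.54 ± 0.35 without Ang1 replicate 2, a 2.92-fold higher level in Ang1 (limma, adjusted p = 1). Leaving out Ang1 replicate 1 or 3 instead turned it to 0.16 or 0.47. Ccl7, a monocyte chemokine read on array B, read 9.85, 9.75 and 9.46 in VEGF, 10.95, 8.54 and 11.06 in Ang1 and 8.49, 9.78 and 8.97 in untreated rings. Ang1 replicates 1 and 3 again lay above every other RNA, and Ang1 replicate 2 lay below every VEGF value but above untreated replicate 1. It differed by -0.50 ± 0.65 with all 6 arrays and by -1.42 ± 0.27 without Ang1 replicate 2.

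The letters upstream of 2 chemokine genes are shown because they carry the binding motif of NF-kB, the transcription factor through which inflammatory signals act on many such genes. The windows are the 250 bases before the RefSeq start site on the gene's own strand, in build GRCr8. Capitals mark matches to GGNNTTTCC, the core of that motif, on either strand. The Cxcl1 window is chr14:17479322-17479571 and the Cxcl2 window chr14:17467256-17467505, both on the minus strand.
Cxcl1: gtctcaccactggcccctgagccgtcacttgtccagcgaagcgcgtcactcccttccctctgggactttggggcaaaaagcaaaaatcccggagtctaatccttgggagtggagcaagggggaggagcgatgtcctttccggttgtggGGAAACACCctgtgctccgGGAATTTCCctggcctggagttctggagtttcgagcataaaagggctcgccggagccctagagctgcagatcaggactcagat
Cxcl2: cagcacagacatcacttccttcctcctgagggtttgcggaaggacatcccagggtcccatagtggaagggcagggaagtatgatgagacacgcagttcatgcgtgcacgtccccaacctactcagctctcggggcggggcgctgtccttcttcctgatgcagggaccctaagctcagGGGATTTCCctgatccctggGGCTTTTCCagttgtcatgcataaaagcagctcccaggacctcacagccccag
Both windows hold 2 matches, whose first bases lie at positions -102 and -83 in Cxcl1 and -73 and -53 in Cxcl2, counted back from the start site. Of the 55 genes in the chemokine, cytokine and NF-kB lists above the filter, 44 had a window and 12 of these (27.3%) held a match, against 5.19% of 33465 windows of all genes. The 12 were Cxcl1, Cxcl2, Cxcl9, Cxcl10, Cxcl11, Ccl20, Il6, Icam1, Vcam1, Bcl3, Nfkb2 and Nfkbia, so the motif occurs both in genes that read higher in Ang1 and, in Cxcl10, in a gene that read higher in VEGF. Another inflammatory motif, AP-1 (TGANTCA, which reads nearly the same on both strands), was present in 10 of the 44 (22.7%), Ccl7 and Il1a among them, and in 6.34% of all windows. The shares were taken over these lists together, and the NF-kB list was built from subunits, inhibitors and known targets of that factor. They are therefore a description of the lists.

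Cxcl2, a close relative of Cxcl1, read 7.99, 7.40 and 6.81 in VEGF, 8.13, 6.89 and 8.66 in Ang1 and 5.93, 6.52 and 5.79 in untreated rings, a difference of -0.50 ± 0.51, or -1.06 ± 0.38 without Ang1 replicate 2. The groups overlapped with all 6 arrays, and every treated value lay above the untreated ones. Ccl4, a macrophage chemokine, kept its difference without that RNA. It read 8.19, 8.07 and 7.75 in VEGF and 8.62, 9.11 and 8.67 in Ang1, a difference of -0.80 ± 0.28 with all 6 arrays and -0.68 ± 0.27 without it. Ccl19 on array B, a ligand of Ccr7, read 8.80, 9.57 and 8.94 in VEGF and 10.00, 9.98 and 10.47 in Ang1, and differed by -1.04 ± 0.35 and -1.23 ± 0.35. Both were at an unadjusted p below 0.05 in both fits, on array B without Ang1 replicate 2 against 2.41% of all probe sets lower in VEGF and 2.8% higher. Ccl3 differed by -0.47 ± 0.33 and by -0.80 ± 0.28 without Ang1 replicate 2. Ccl2, in contrast, overlapped in both fits (-0.34 ± 0.38 and -0.41 ± 0.41).

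Cxcl10, an interferon-induced chemokine, ran the other way, at 8.47, 8.99 and 8.04 in VEGF and 7.46, 8.94 and 7.35 in Ang1. It was higher in VEGF by 0.58 ± 0.48, and by 1.16 ± 0.33 without Ang1 replicate 2. Of the 15 chemokines kept on array A, 6 were higher in VEGF and 9 lower, with a median of -0.28 and 1 at an unadjusted p below 0.05 (Ccl4, against 0.704% of all probe sets in that direction). Without Ang1 replicate 2 the 14 kept had 5 higher and 9 lower and the same median, and 4 were lower in VEGF at an unadjusted p below 0.05 (Cxcl1, Cxcl2, Ccl3 and Ccl4), against 1.45% of all probe sets, and 1 was higher (Cxcl10, against 1.43%).

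In the cytokine list, Tnf read 7.18, 7.52 and 6.35 in VEGF, 8.24, 6.76 and 8.15 in Ang1 and 6.30, 5.73 and 5.42 in untreated rings. Its difference was -0.70 ± 0.49, or -1.25 ± 0.36 without Ang1 replicate 2 (limma, adjusted p = 0.977 and 1). Il1a read 6.46, 6.80 and 6.60 in VEGF and 7.70, 6.86 and 7.26 in Ang1, so that its groups did not overlap even with all 6 arrays. It differed by -0.65 ± 0.32 and, without Ang1 replicate 2, by -0.90 ± 0.26. Il1b differed by -0.46 ± 0.29 and -0.64 ± 0.29. Il16, a CD4 ligand that attracts T cells, read 8.80, 9.06 and 8.94 in VEGF and 8.30, 7.77 and 8.39 in Ang1, a difference of 0.78 ± 0.28, or 0.62 ± 0.26 without Ang1 replicate 2. Nos2, the nitric oxide synthase that inflammatory signals induce, read 8.29, 7.09 and 6.05 in VEGF and 5.50, 8.16 and 5.30 in Ang1. Its groups overlapped through Ang1 replicate 2, its difference was 0.83 ± 0.84, and it was higher in VEGF with array weights (1.83, limma, adjusted p = 0.0462) and below the filter without Ang1 replicate 2. Over the list's 16 genes on array A, 7 were higher and 9 lower with a median of -0.17. Il16 alone was at an unadjusted p below 0.05, against 0.662% of all probe sets higher in VEGF and 0.704% lower. Without Ang1 replicate 2 the 15 kept had 6 higher and 9 lower (median -0.26), with Il16 on the VEGF side and Tnf and Il1a on the Ang1 side at an unadjusted p below 0.05, against 1.43% and 1.45% of all probe sets.

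**Figure D3:**
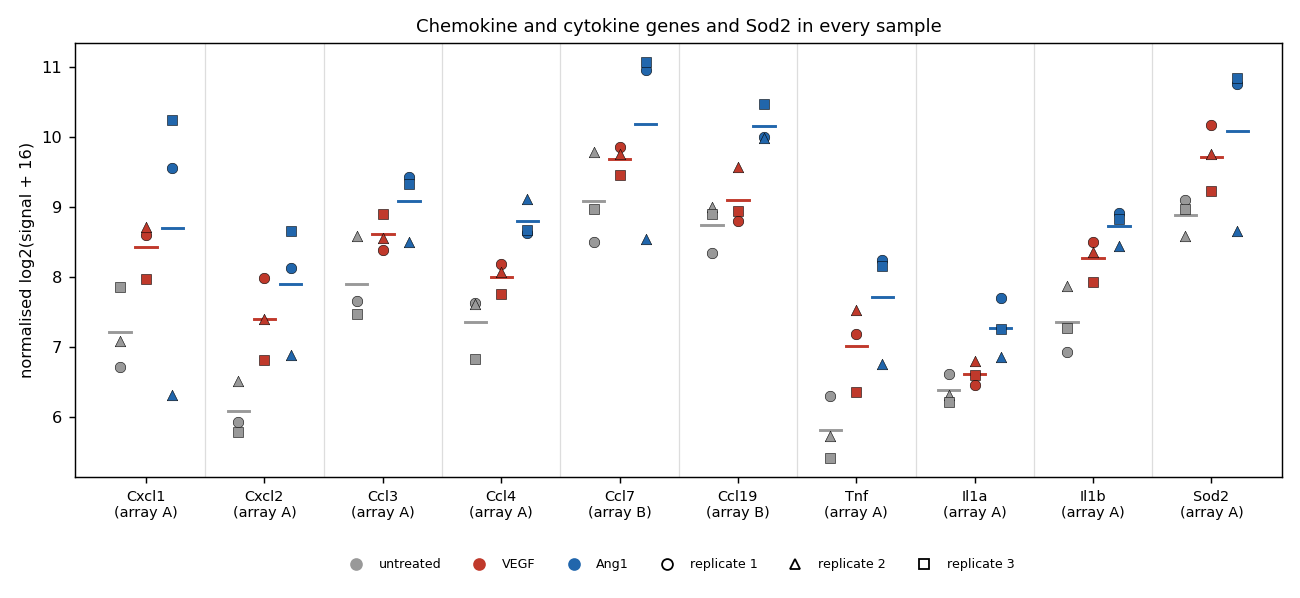
Normalised log2(signal + 16) of 10 inflammatory genes in each of the 9 RNAs, with replicates as symbols and group means as bars, VEGF in red, Ang1 in blue and untreated in grey. For Cxcl1, Ccl7, Tnf and Sod2 the Ang1 circle and square lie above all VEGF symbols and the Ang1 triangle (replicate 2) below at least 2 of the 3 VEGF symbols, whereas for Ccl4, Ccl19 and Il1a all 3 Ang1 symbols lie above VEGF.

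Sod2, the mitochondrial superoxide dismutase and a known NF-kB target, read 10.16, 9.75 and 9.22 in VEGF and 10.75, 8.66 and 10.84 in Ang1, and differed by -0.37 ± 0.58 with all 6 arrays and by -1.10 ± 0.32 without Ang1 replicate 2. Tnfaip6, a secreted hyaluronan-binding protein, differed by -0.50 ± 0.35 and -0.85 ± 0.23. Rela, the NF-kB subunit p65, changed sides, from 0.16 ± 0.67 to -0.73 ± 0.29. The 18 genes of the NF-kB list on array A were 10 higher and 8 lower in VEGF (median 0.07). Without Ang1 replicate 2 they were 6 higher and 12 lower (median -0.17), where 49.7% of all probe sets were above 0. None was at an unadjusted p below 0.05 with all 6 arrays. Sod2 and Rela were without Ang1 replicate 2, against 1.45% of all probe sets lower in VEGF.

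Of the 22 macrophage markers kept on array A, 13 were higher in VEGF and 9 lower (median 0.12), and 14 and 8 without Ang1 replicate 2 (median 0.15). The summed signal of the list was 31572 to 36933 in VEGF and 29097 to 32031 in Ang1. On array B the macrophage receptor Adgre1 read 11.52, 11.55 and 11.34 in VEGF and 12.16, 9.57 and 12.30 in Ang1, which put it with Ccl7 by its arrangement (0.13 ± 0.67, or -0.78 ± 0.23 without Ang1 replicate 2). Cybb, the catalytic subunit of the phagocyte oxidase, read 12.61, 12.87 and 12.74 in VEGF and 12.30, 11.15 and 12.13 in Ang1, a difference of 0.88 ± 0.34 that fell to 0.50 ± 0.22 without Ang1 replicate 2, whereas its array A probe set differed by -0.22 ± 0.33. Cd163, a scavenger receptor, differed by -0.89 ± 0.38, and by -0.62 ± 0.33 without that RNA. Neither was at an unadjusted p below 0.05 there. The part of macrophage number in the chemokine values was not tested.

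Single cell cycle genes read higher in VEGF. Mki67, a nuclear protein of dividing cells, read 8.52, 8.80 and 8.97 in VEGF, 7.12, 8.87 and 7.68 in Ang1 and 7.86, 8.67 and 8.17 in untreated rings. Ang1 replicate 2 lay within the VEGF range and the other Ang1 values below it. The difference was 0.88 ± 0.45, and 1.45 ± 0.30 without Ang1 replicate 2, a 2.73-fold higher level (limma, adjusted p = 1), and Mki67 was called with array weights (1.48). Ccna2 on array B, the cyclin of S and G2 phase, read 8.71, 8.24 and 7.54 in VEGF and 7.10, 6.91 and 7.02 in Ang1. These groups did not overlap, untreated rings read 8.48, 8.26 and 7.5, and the difference was 1.15 ± 0.37 (1.12 ± 0.39 without Ang1 replicate 2). Cdc20, an activator of the anaphase-promoting complex, was also higher in every VEGF RNA (0.41 ± 0.27, or 0.58 ± 0.24). With all 6 arrays, groups without overlap and higher in VEGF made up 5.83% of all probe sets on array B and 3.63% on array A. The mitotic kinase Cdk1 differed by 0.19 ± 0.33 and 0.52 ± 0.26. Over the 26 proliferation genes of array A, 16 were higher in VEGF and 10 lower with a median of 0.10, none at an unadjusted p below 0.05. Without Ang1 replicate 2 the counts were 15 and 11 and the median 0.13. Of all probe sets 51.6% and 49.7% were above 0 in these fits, so the list is not read as a shift.

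Of the interferon-response genes, with all 6 arrays 17 of 26 on array A were higher in VEGF and 9 lower (median 0.09), and without Ang1 replicate 2 the counts were 22 and 4 (median 0.20), against 49.7% of all probe sets above 0. Of the 26, only Cxcl10 had an unadjusted p below 0.05 there, against 1.43% of all probe sets higher in VEGF. Mx2, an interferon-induced GTPase that was called with array weights (1.59), differed by 0.80 ± 0.61 and by 1.25 ± 0.60 without Ang1 replicate 2. Isg15 on array B, an interferon-induced ubiquitin-like protein, read 10.87, 11.18 and 10.49 in VEGF, 10.45, 11.13 and 9.61 in Ang1 and 10.70, 11.17 and 9.58 in untreated rings. Its groups overlapped with all 6 arrays, with a difference of 0.45 ± 0.43. Without Ang1 replicate 2 they did not overlap and the difference was 0.88 ± 0.36, at an unadjusted p below 0.05, against 2.8% of all probe sets of array B in that direction.

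**Figure D4:**
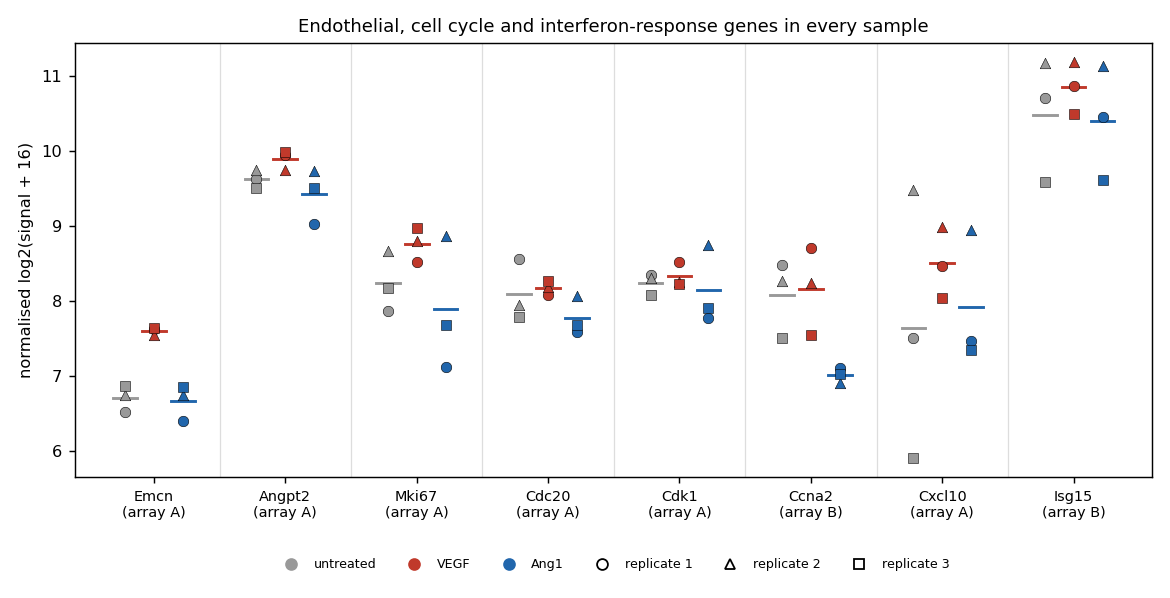
Normalised log2(signal + 16) of 8 endothelial, cell cycle and interferon-response genes in each of the 9 RNAs, with replicates as symbols and group means as bars, VEGF in red, Ang1 in blue and untreated in grey. The VEGF symbols of Emcn lie above all others, and the Ang1 symbols of Ccna2 below all others.

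Of the smooth muscle markers, 7 of 20 on array A were higher in VEGF and 13 lower with a median of -0.13 (-0.03 for the 6 on array B), and without Ang1 replicate 2 the counts were 2 and 18 (median -0.17). Vcl, which links actin to adhesions, was the member with an unadjusted p below 0.05, against 0.704% of all probe sets lower in VEGF. It differed by -0.71 ± 0.31, or -0.59 ± 0.32 without Ang1 replicate 2, and its array B probe set by 0.19 ± 0.37. Acta2, smooth muscle actin, took that place without Ang1 replicate 2 (-0.63 ± 0.27), against 1.45% of all probe sets. The summed signal of the list was 15222 to 18550 in VEGF and 16724 to 18688 in Ang1, and these ranges overlapped. Genes of endothelial junctions held Ccm2, an adaptor of the cerebral cavernous malformation complex, at 7.75, 7.57 and 9.11 in VEGF and 7.36, 5.48 and 7.10 in Ang1, a difference of 1.5 ± 0.60. Its partner Krit1 differed by 0.91 ± 0.39. With Ang1 replicate 2 left out they were 0.97 ± 0.47 and 0.72 ± 0.36 and no junction gene had an unadjusted p below 0.05. With all 6 arrays these 2 of 17 did, against 0.662% of all probe sets higher in VEGF. Over the 17 junction genes of array A 7 were higher in VEGF and 10 lower (median -0.09), and 4 and 13 without Ang1 replicate 2 (median -0.27). FOXO targets, which Ang1 is known to restrain through Akt, were listed together with Foxo1 and Foxo3 themselves. Of 18 on array A, 7 were higher in VEGF and 11 lower (median -0.17), and 5 and 13 without Ang1 replicate 2 (median -0.22). Angpt2 was on the VEGF side and Gadd45a on the Ang1 side (-0.51 ± 0.31, or -0.74 ± 0.27 without Ang1 replicate 2). Without that RNA 1 was higher and 2 lower at an unadjusted p below 0.05, against 1.43% and 1.45% of all probe sets.

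The remaining list members at an unadjusted p below 0.05 were single genes of their lists, so they describe those genes and not the lists. With all 6 arrays 1.37% of all probe sets of array A and 5.61% of array B were at that level. RT1-Ba, a chain of an MHC class II molecule that presents peptides to T cells, read 8.43, 8.66 and 7.5 in VEGF, 9.50, 10.51 and 9.06 in Ang1 and 8.48, 7.47 and 7.47 in untreated rings. All 3 Ang1 values lay above every other RNA. The difference was -1.49 ± 0.49 (limma, adjusted p = 0.662), or -1.15 ± 0.40 without Ang1 replicate 2, and its second probe set on array B gave -1.70 ± 0.55 and -1.12 ± 0.32. The 7 class II genes kept on array A did not share that side, with 5 higher in VEGF and 2 lower (median 0.17). Ndrg1, a gene induced by hypoxia, read 7.96, 6.87 and 7.49 in VEGF and 8.97, 9.52 and 8.14 in Ang1 on array B. It differed by -1.44 ± 0.45, or -1.15 ± 0.41 without Ang1 replicate 2, whereas its array A probe set differed by -0.19 ± 0.27. Lipe, the hormone-sensitive lipase of fat cells, differed by -1.16 ± 0.46, and by -0.75 ± 0.32 without Ang1 replicate 2. These 3 genes kept an unadjusted p below 0.05 without that RNA, against 2.41% of all probe sets of array B lower in VEGF. The other 5 did not: Nfatc1, a transcription factor activated by calcineurin (0.86 ± 0.37, then 0.63 ± 0.30), the mast cell tryptase Tpsb2 (1.27 ± 0.52, then 1.10 ± 0.53), the ribosomal protein Rps29 (-0.65 ± 0.27, then -0.36 ± 0.19), the heat shock regulator Hsf1 (0.79 ± 0.33, then 0.74 ± 0.33) and Ndufa8 of respiratory complex I (0.78 ± 0.31, then 0.54 ± 0.27).

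**Figure D5:**
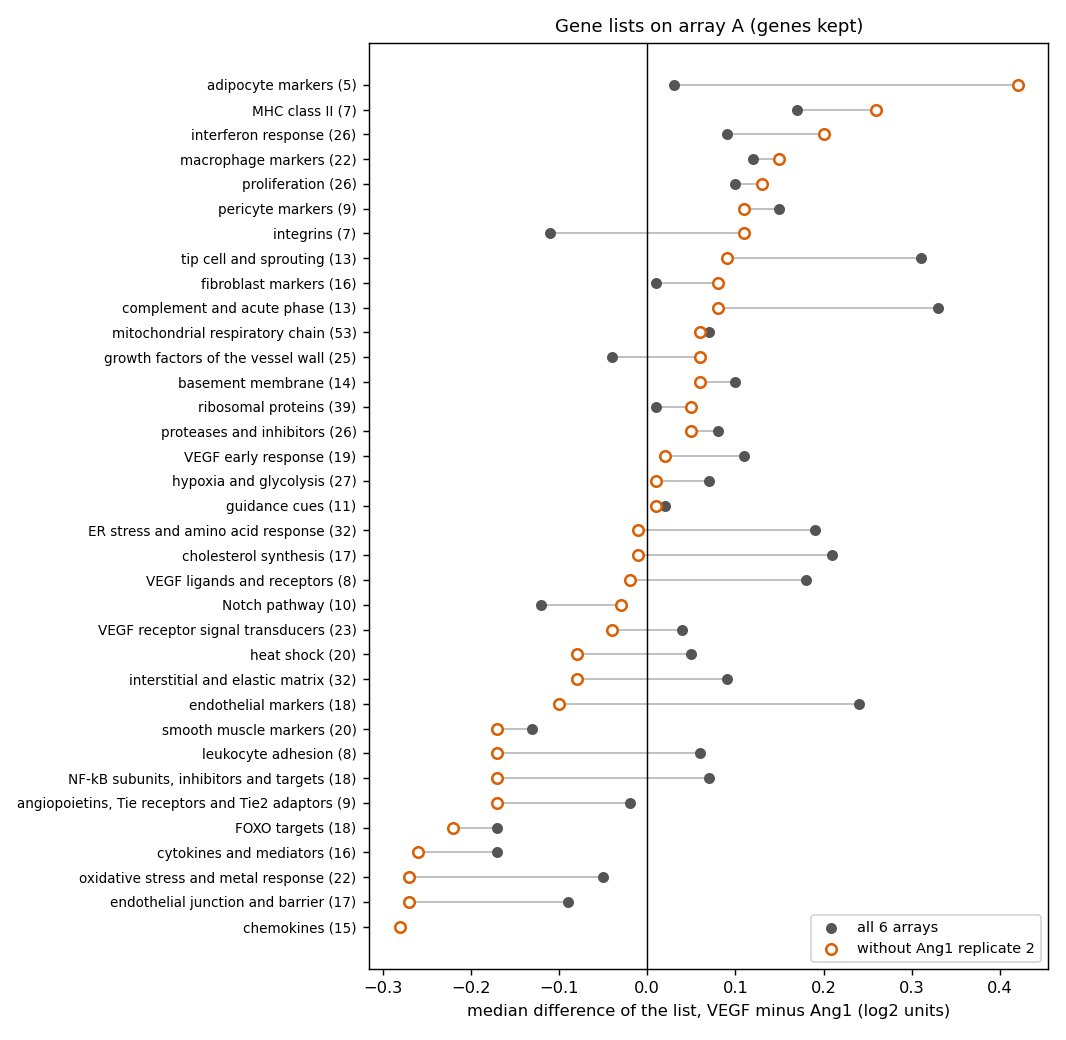
Median VEGF minus Ang1 difference in log2 units of each gene list with at least 5 genes kept on array A, with the number kept in brackets, from all 6 arrays (filled) and without Ang1 replicate 2 (open). The chemokine list keeps its median of -0.28, whereas the endothelial markers move from 0.24 to -0.10.

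Without Ang1 replicate 2 the genes of smallest p that have not yet been named were, on the VEGF side, Fam98c (1.64 ± 0.33), the kinetochore gene Spc24 (1.34 ± 0.32), the transposon-derived chromatin protein Pogz (1.16 ± 0.30), Mrpl32 of the mitochondrial ribosome (1.07 ± 0.26), Car8 (0.97 ± 0.24) and the mitochondrially encoded cytochrome c oxidase subunit COX2 (0.54 ± 0.15) on array A, and the ATPase Afg2b on array B (2.30 ± 0.41). On the Ang1 side they were Ldha, the lactate dehydrogenase of glycolysis (-0.86 ± 0.21), Rasgef1b (-1.08 ± 0.26) and the kinase Csnk1d (-0.95 ± 0.26), which differed by -0.30 ± 0.56, -0.73 ± 0.33 and -0.31 ± 0.49 with all 6 arrays. Spc24 and Afg2b fell below the filter when all 6 arrays were used. The sign of the difference depended on that RNA in 2933 of 9282 probe sets (31.6%) of array A and in 2116 of 8899 (23.8%) of array B. Of the 125 probe sets of array A at an unadjusted p below 0.05 with all 6 arrays that could be tested in both fits, 82 stayed below it, and of 486 on array B, 303. The 99 probe sets kept on both array types gave a check on the hybridisation, since the same RNA was read on both: 64 of them had the same sign of the difference on both, with a correlation of 0.51 across probe sets, which are not independent replicates, and 62 did so without Ang1 replicate 2, with a correlation of 0.31.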

How the data were processed

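The authors deposited linear signal intensities, 1 per probe set. Per the submitters' processing notes the software was MAS5. Its version was not stated. Every array had a mean of 250 after trimming 2% at each end, except Ang1 replicate 3 on array B (94.8). The rule for the members uses sample titles, but the comparison and the gene lists were chosen with earlier results of these data known.

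For each array type the 6 VEGF and Ang1 arrays were scaled to that mean, log2(signal + 16) was taken and quantile normalised, and untreated arrays were placed on the same distribution without entering the fit. Control probe sets and those with a mean below the 40th percentile were left out. VEGF was compared with Ang1 in limma 3.58.1 (R 4.3.3) with an intensity trend and Benjamini-Hochberg adjustment over each array type (threshold 0.05). With 3 samples a group the lowest p of an exact test is 0.1, so genes were tested only in this model, which was tested on simulated data. In those data each probe set had the same spread on all arrays. The simulation therefore held no array that stood apart as Ang1 replicate 2 did. The number of arrays limits the precision.

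By the design text each of 3 animals gave 1 RNA per group, but the labels do not tie replicate numbers to animals, so p-values measure the spread between these samples. Correlations of same-numbered deviations were 0.23, -0.02 and -0.15 on array A, and the replicate number was not used in the main model. On array A 12789 probe sets had 1 gene symbol, 312 several and 2822 none (7570, 100 and 7663 on array B), from the platform annotation, and probe sets with several symbols were left unnamed. The genes named are those of smallest p with non-overlapping groups, up to 12 per direction on array A and 8 on array B with all 6 arrays and up to 10 and 6 without Ang1 replicate 2, members of the ligand and receptor lists (most adaptors by their range), and of the other lists the members at an unadjusted p below 0.05. Where a list had none, the rule allows its 4 of smallest p, of which some are named. The brightest probe set stands for a list gene. Ccl2, Ccl3, Cxcl2, Cxcl10, Il1b, Nos2, Rela, Cdk1, Adgre1, Acta2 and the probe set without a gene name were chosen after their values were seen. Promoter letters are from RefSeq, GRCr8. Scaling, pseudocount, filter, trend, array weights, a replicate block and leaving out each RNA were tried as alternatives.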

Additional observations from a re-analysis of the deposited data

How the results depend on the processing

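The count of adjusted calls was 0 on both array types in limma under every alternative tried except array weights, with 30 calls on array A and 3 on array B, and values as deposited, with 4 on array B. At an unadjusted p below 0.05 array A counted 130 probe sets, and 418 without a filter, 76 with a filter at the 60th percentile and 1812 with array weights. Array B counted 514, and 885, 295 and 1571 under the same settings, 836 as deposited and 776 in a model over 9 arrays with the untreated ones. Leaving out 1 RNA gave 49 to 346 calls at that level on array A, and on array B 184 to 1012. The causes of these moves were not tested, beyond the number of probe sets tested that a filter sets. With the replicate number as a block, 147 probe sets of array A and 433 of array B were at an unadjusted p below 0.05. None passed the adjustment, so a block on that number changed no adjusted call. As the labels do not tie replicate numbers to animals, the pairing by animal could not be modelled.

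Over the 109 named probe sets and their alternatives, 1725 of 1778 values kept sign and side of the threshold, 17 became calls, 16 of them with array weights, and 36 changed sign. The sign changes were in COX2 (-0.03), Vegfb (-0.10), the array B probe sets of Kdr (-0.15) and Vcl (-0.03) with a trimmed mean, and in COX2 (-0.03) and Vegfb (-0.10) as deposited. Ldha became 0.13 with equal medians. Array weights turned Nrp1 to -0.39, Vegfb to -0.44, Rela to -0.64, Cybb on array A to 0.01, Kdr on array B to -0.52, Tek to -0.05, Vcl on array B to -0.02 and Adgre1 to -0.58. Leaving out 1 RNA spanned 0 in Cxcl1 (-1.54 to 0.47), Sod2 (-1.10 to 0.00), Ldha (-0.86 to 0.12), Csnk1d (-0.95 to 0.02), Rela (-0.73 to 0.66), Ccl2 (-0.57 to 0.06), Acta2 (-0.63 to 0.04), Adgre1 (-0.78 to 0.60), Nrp1 (-0.28 to 0.80), Vegfb (-0.13 to 0.29), Tek (-0.03 to 0.50), Cybb on array A (-0.42 to 0.06), and Kdr (-0.35 to 0.37) and Vcl (-0.06 to 0.38) on array B. Of 816 alternative values of 48 list medians, 70 moved by more than 1 SD between arrays. Signal near the filter limits the dimmest genes.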
